A study of Mus musculus with 12 samples.

Results

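RNA of sorted skin fibroblasts taken 16 h after wounding was compared with RNA of the same kind of cells from unwounded skin (NW), across all genes. The comparison uses 6 of the 12 libraries of the series, 3 at 16 h and 3 in NW, each from a different mouse; the other 6 libraries are from wounds of 1.5 d and 3 d. All mice were male, wild type C57BL/6 animals of 8 weeks, and wounds were full-thickness punch wounds of 4 mm in the back skin. Tissue of both groups was minced and digested with liberase, and viable cells were sorted that carried SCA1, encoded by Ly6a, and lacked CD45 and CD31. The SCA1 gate takes part of the dermal fibroblasts, so fibroblasts without SCA1 are outside these data. The 16 h libraries held 30601136, 31450940 and 26431358 counted fragments, and the NW libraries held 27407164, 28810566 and 29181224. Levels below are CPM, counts scaled to a common library total, after TMM scaling, listed in the order of replicates 1, 2 and 3, and positions are in mm10. A gene was called where the edgeR quasi-likelihood test gave an adjusted p under 0.05 over all genes tested, and changes are log2 of 16 h over NW.

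In the first day of a skin wound, damaged cells release alarm signals, resident fibroblasts make cytokines that call and sustain leukocytes, and the tissue has not yet begun to contract or to lay down new collagen in quantity. Fibroblasts read IL-1, IL-6 family and TNF family ligands through receptors that signal by NF-kB and by JAK and STAT proteins. A cell that starts to secrete large amounts of protein also needs charged tRNAs, translation factors, chaperones and the proteasome, which removes misfolded protein.

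The table listed 25239 genes. Of the 14901 that passed the filter on low counts, 3687 (24.7%) were called, 2015 higher at 16 h (13.5%) and 1672 lower (11.2%). A test against a 2-fold change, which asks for more than a difference from 0, kept 822 (5.52%), with 453 higher genes (3.04%) and 369 lower genes (2.48%). With the 6 libraries fitted alone the balance past 2-fold turned, to 364 higher and 458 lower, and all calls stood at 1733 higher and 1719 lower. The DESeq2 test called 2341 higher and 2339 lower. The 3 libraries of 16 h lay wholly above or below the 3 of NW in 6160 genes (41.3%), which is the background for each statement below that the groups do not overlap. The share of genes called grew with the level, being 8.67% of genes under 1 CPM and 29.3% of genes between 10 and 100 CPM. Without replicate 2 of 16 h the call count dropped to 2249, 1308 higher and 941 lower, and each of the other 5 libraries left out in turn gave between 2791 and 3178.

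**Figure D1:**
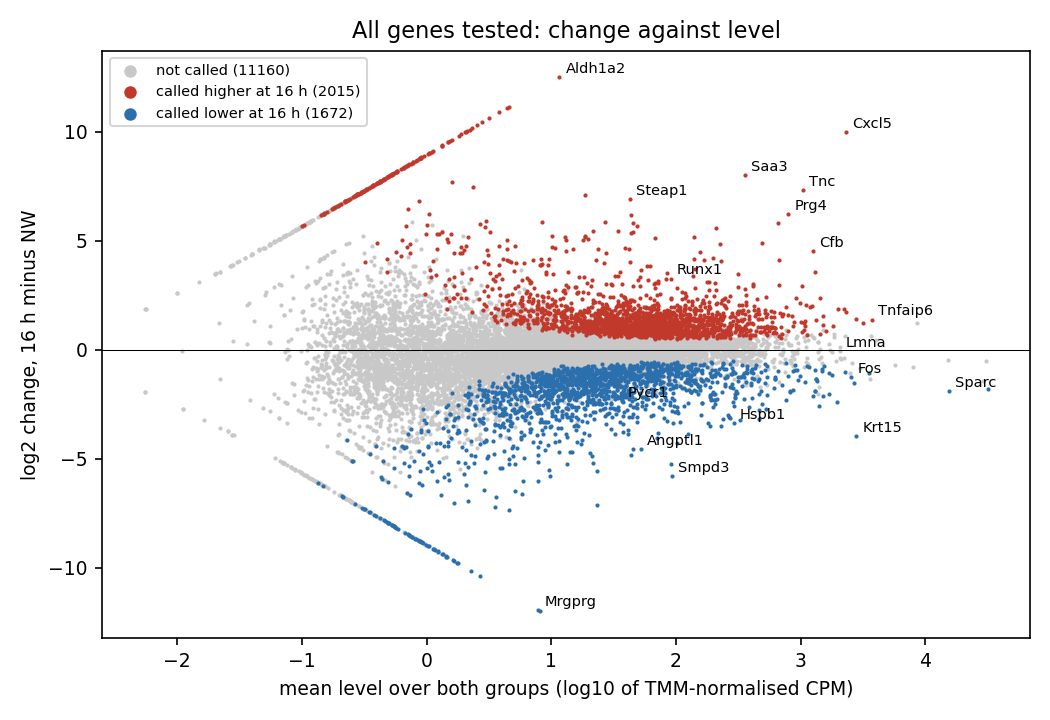
Each point is a gene with a count in the 16 h or NW libraries; the x axis is the log10 of the mean TMM-normalised CPM over both groups and the y axis the log2 change of 16 h minus NW. Red points are the 2015 genes called higher and blue points the 1672 called lower; the straight upper and lower edges are genes with no count in NW or at 16 h.

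The sorted cells had the genes that define fibroblasts in both groups, though those genes did not hold one level. Pdgfra, the PDGF receptor that marks fibroblasts, had 803, 889 and 550.5 CPM at 16 h, against 164, 104 and 179 CPM in NW. The groups did not overlap and the change was 2.33 ± 0.35 (SE), edgeR adjusted p = 5.82e-04. Vim, the intermediate filament of mesenchymal cells, had 1446, 2008 and 2319.6 CPM at 16 h, against 778, 785 and 647 CPM in NW, a change of 1.39 ± 0.25 (SE) at edgeR adjusted p = 0.00192. Ly6a, the gate gene, had 1367, 1227 and 1948 CPM at 16 h, against 1142, 1146 and 869.7 CPM in NW, and its change of 0.52 ± 0.28 (SE) was not called (edgeR adjusted p = 0.187). Col1a2, a chain of type I collagen, had 25416, 9107 and 7962 CPM at 16 h, against 63499, 28992 and 54602 CPM in NW. Replicate 1 was the highest library of its group at 16 h and in NW, and the change of -1.79 ± 0.46 (SE) (edgeR adjusted p = 0.0132) reached -1.55 with adjusted p = 0.0644 without replicate 2 of 16 h and -2.52 with adjusted p = 0.00218 without replicate 1 of 16 h. Of the 8 fibroblast markers 2 were called higher and 2 lower, the other lower one being the proteoglycan gene Lum. Col1a1, the other chain of type I collagen, averaged 15377 ± 11717 CPM at 16 h and 42155 ± 19011 CPM in NW (SD, n = 3 each). Its change of -1.45 ± 0.54 (SE) was not called (edgeR adjusted p = 0.0645), but was called without replicate 1 of 16 h, at -2.28 with adjusted p = 0.0112. Col3a1, of type III collagen, had the highest mean of the 8 at 16 h and averaged 25169.6 ± 13909 CPM at 16 h and 36232 ± 14832 CPM in NW (SD, n = 3 each), a change of -0.53 ± 0.43 (SE) that was not called (edgeR adjusted p = 0.405). Dcn, the proteoglycan decorin, had 5887, 5336 and 6408 CPM at 16 h, against 11918, 10462 and 7994 CPM in NW and was not called either, at -0.78 ± 0.28 (SE) (edgeR adjusted p = 0.0604). Col1a1 and Dcn were both called lower by DESeq2 and by limma-voom at an adjusted p under 0.05. In bulk RNA, fewer cells of a type and less RNA per cell cannot be told apart.

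Genes of cell types outside the gate were present at low levels, apart from keratinocyte genes. The 18 keratinocyte markers together took 1.45, 0.887 and 1.02% of counts at 16 h, against 1.94, 3.96 and 3.3% in NW. The 9 neutrophil markers took between 0.001 and 0.00249% at 16 h and between 7.64e-05 and 0.000266% in NW. Markers of mature adipocytes took 0.000165 to 0.000324% at 16 h and 0.00513 to 0.0131% in NW, and endothelial markers 0.0012 to 0.00211% at 16 h and 0.00741 to 0.0119% in NW. Of these lists, 2 of 18 keratinocyte markers were called higher and 6 lower, 4 of 7 tested neutrophil markers were called higher, 6 of 8 adipocyte markers lower and 3 of 8 endothelial markers lower. The summed share of the 14 macrophage and monocyte markers overlapped, with 0.00628 to 0.0147% at 16 h and 0.00661 to 0.0204% in NW, while 6 of the 14 were called higher and 1 lower, with a median change of 1.87. The higher ones were Mrc1, Itgam, Fcgr1, Lyz2, Cd14 and C1qc, each with a mean under 25 CPM at 16 h, and the lower one was Csf1r. Ptprc, the gene of CD45, against which the cells were sorted, had 1.47, 8.71 and 2.55 CPM at 16 h, against 2.56, 0 and 0 CPM in NW. Its groups overlapped and it was not called by edgeR (adjusted p = 0.274), but it was called higher by limma-voom (adjusted p = 0.0325) and by edgeR without replicate 1 of NW, which held all its NW counts (adjusted p = 0.00317). The keratinocyte genes did not move as a block. Krt6a, a keratin of injured epidermis, had 609, 241 and 283 CPM at 16 h, against 4.43, 17.6 and 39.04 CPM in NW. It was higher in each 16 h library than in any NW library, with a change of 4.21 ± 0.96 (SE) (edgeR adjusted p = 0.00719) that became 5.13 without replicate 3 of NW. Krt15, a keratin of resting basal and follicle cells, had 257, 317 and 437 CPM at 16 h, against 3981, 6259.9 and 5455 CPM in NW. It was lower in each 16 h library, with a change of -3.96 ± 0.59 (SE) on the log2 scale (edgeR adjusted p = 5.46e-04). With the keratinocyte level of each library as a covariate, 1257 genes were called higher and 890 lower. Of the 3687 calls made without it, 2103 were kept. With the keratinocyte genes taken out of the table before scaling, 3685 genes were called. How far other cells in the sort contribute to any one gene below was not tested.

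The largest rises among abundant genes were in genes of several functions, and the plot of single libraries shows 12 rises and 12 falls. The chemokine gene Cxcl5, the acute phase gene Saa3, the matrix gene Tnc and the lubricin gene Prg4 led the rises, with changes of 9.97, 8.03, 7.32 and 6.21. Without replicate 1 of NW, which held the highest NW level of each, Cxcl5 stood at 11.35 and Saa3 at 9.91. The fifth was Il1rl1 (chromosome 1, 40429570 to 40465414), which encodes ST2, the receptor of the alarm cytokine IL-33. It had 828, 1747 and 1326 CPM at 16 h, against 32.9, 25.8 and 9.88 CPM in NW. The groups were far apart, and the change was 5.83 ± 0.51 (SE) at edgeR adjusted p = 2.52e-05. S1pr3, a receptor of the lipid signal sphingosine 1-phosphate (chromosome 13, 51408618 to 51422797), had 293, 344 and 183 CPM at 16 h, against 9.42, 4.67 and 8.69 CPM in NW. The change of 5.17 ± 0.40 (SE) (edgeR adjusted p = 1.15e-05) came with groups that did not overlap. Adam12, a membrane metalloprotease gene (chromosome 7, 133883199 to 134225097), had 132, 163 and 102 CPM at 16 h, against 4.23, 3.88 and 3.22 CPM in NW, a change of 5.13 ± 0.37 (SE) at edgeR adjusted p = 1.04e-05. Timp1, an inhibitor of matrix metalloproteases on chromosome X, had 1051, 829.7 and 978 CPM at 16 h, against 24.9, 41.7 and 28.8 CPM in NW. Its change was 4.90 ± 0.53 (SE), edgeR adjusted p = 6.50e-05. Cfb, complement factor B of the alternative pathway, had 2641, 2464 and 2152 CPM at 16 h, against 128, 98.2 and 84.7 CPM in NW. The level at 16 h put Cfb among the 8 genes that gained the most CPM.

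Among the falls, Smpd3 (chromosome 8, 106252548 to 106337965), which encodes a neutral sphingomyelinase, had 1.201, 3.103 and 5.43 CPM at 16 h, against 221, 108 and 215 CPM in NW. Each 16 h library was below each NW library, and the change was -5.80 ± 0.53 (SE) at edgeR adjusted p = 2.60e-05. Inmt, a methyltransferase gene, had 1.53, 2.89 and 9.53 CPM at 16 h, against 203, 229 and 102 CPM in NW. Its change was -5.26 ± 0.75 (SE) (edgeR adjusted p = 4.06e-04), and -6.32 without replicate 3 of 16 h, the highest of its group. Angptl1, an angiopoietin-like secreted factor (chromosome 1, 156839023 to 156861079), had 3.07, 3.16 and 6.47 CPM at 16 h, against 118, 94.3 and 90.7 CPM in NW, with a change of -4.57 ± 0.40 (SE) at edgeR adjusted p = 2.52e-05. Clec11a, a secreted growth factor of the lectin family, had 23.7, 13.01 and 13.8 CPM at 16 h, against 198, 165 and 155 CPM in NW. No library of one group reached the other, and the change was -3.36 ± 0.33 (SE) at edgeR adjusted p = 3.15e-05. Cldn10, Kazald1, Ndufa4l2 and Sema3b fell by 4.26, 4.06, 3.84 and 3.51 on the log2 scale. Krt15, Krt77 and Ccl27a, genes of keratinocytes, were also among the 12, beside the lower keratinocyte share at 16 h given above; Ccl27a changed by -3.83, and by -3.21 without replicate 2 of NW, and Krt77 by -3.49, and by -2.79 without replicate 3 of NW.

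**Figure D2:**
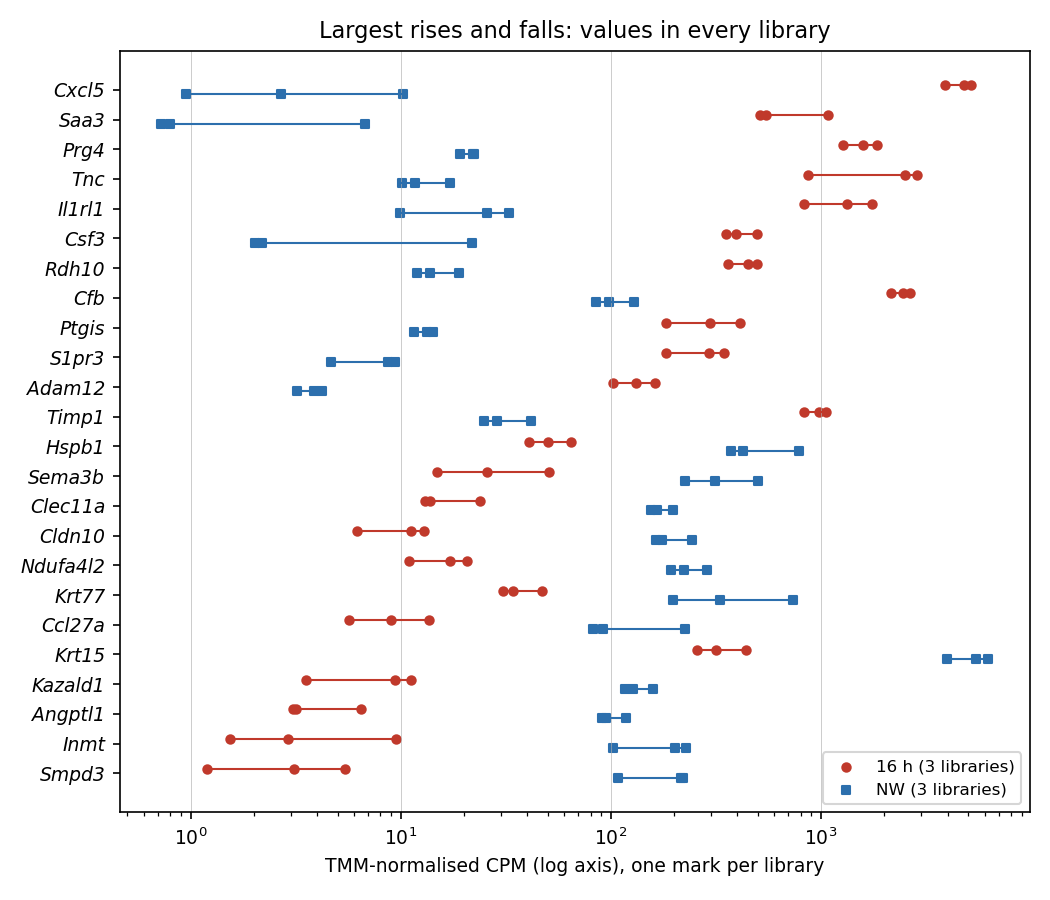
TMM-normalised CPM on a log axis in each library for the 12 largest rises (upper rows) and 12 largest falls (lower rows) among called genes whose higher group averaged 100 CPM or more; red circles are the 3 libraries of 16 h and blue squares the 3 of NW, joined by a line from lowest to highest. In each of the 24 genes the red and blue marks do not overlap, which the rule for choosing them required.

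Some genes were found in one group and not in the other. Of the 3687 called genes, 135 had no count in any NW library and 64 had none in any 16 h library. Genes without a count in a group that were not called are left out of these numbers. Tnfsf11, which encodes RANKL (chromosome 14, 78277446 to 78308043), had 10.2, 7.92 and 9.23 CPM at 16 h, against 0, 0 and 0 CPM in NW. Against a floor of 3 counts over the NW libraries it was at least 263-fold higher. Aldh1a2, an enzyme that makes retinoic acid, was at least 672-fold higher by the same floor. Cxcr2, a chemokine receptor of neutrophils, had 10.01, 2.92 and 13.5 CPM at 16 h, against 0, 0 and 0 CPM in NW, and Chil3, a chitinase-like gene of myeloid cells, had 2.77, 10.5 and 5.87 CPM at 16 h, against 0, 0 and 0 CPM in NW. Their levels are given beside the neutrophil share above, in which Cxcr2 takes part. In the other direction, Cybrd1, an iron reductase gene (chromosome 2, 71118054 to 71142926), had 0, 0 and 0 CPM at 16 h, against 13.7, 9.18 and 26.3 CPM in NW, at least 508-fold lower at 16 h. Mrgprg, a Mas-related receptor gene, had 0, 0 and 0 CPM at 16 h, against 5.19, 16.7 and 25.04 CPM in NW and was at least 485-fold lower. Krt36, a hair keratin, was at least 109-fold lower.

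A few genes stayed near their level within a set limit. In 111 genes (0.745%) the 95% interval of the change by limma-voom lay within 0.5 of 0 on the log2 scale, and 11 to 42 genes met this when 1 library was left out (11 without replicate 2 of 16 h). Lmna, the gene of nuclear lamins A and C, was the most abundant of them and had 2246, 2051 and 1777 CPM at 16 h, against 1977, 2323 and 1991 CPM in NW. Rac1, a small GTPase of cell shape and movement, had 445, 489.5 and 423 CPM at 16 h, against 401, 463 and 381 CPM in NW. Nfkbiz, an inhibitor-like regulator in the NF-kB pathway, had 552, 478 and 348 CPM at 16 h, against 460.3, 421 and 509.6 CPM in NW. In these 3 genes the libraries of the groups overlapped.

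The changes were then described over 29 gene lists, shown in the plot of lists. The counts of members below stand beside 13.5% called higher and 11.2% called lower among all genes tested. The lists of aminoacyl-tRNA synthetases, chaperones, cytokine receptors and colony-stimulating factors held the highest shares called higher. AP-1 factors, small leucine-rich proteoglycans with elastic fibre genes, G1 cyclins with cell cycle inhibitors, and lysosome genes held the highest shares called lower.

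**Figure D3:**
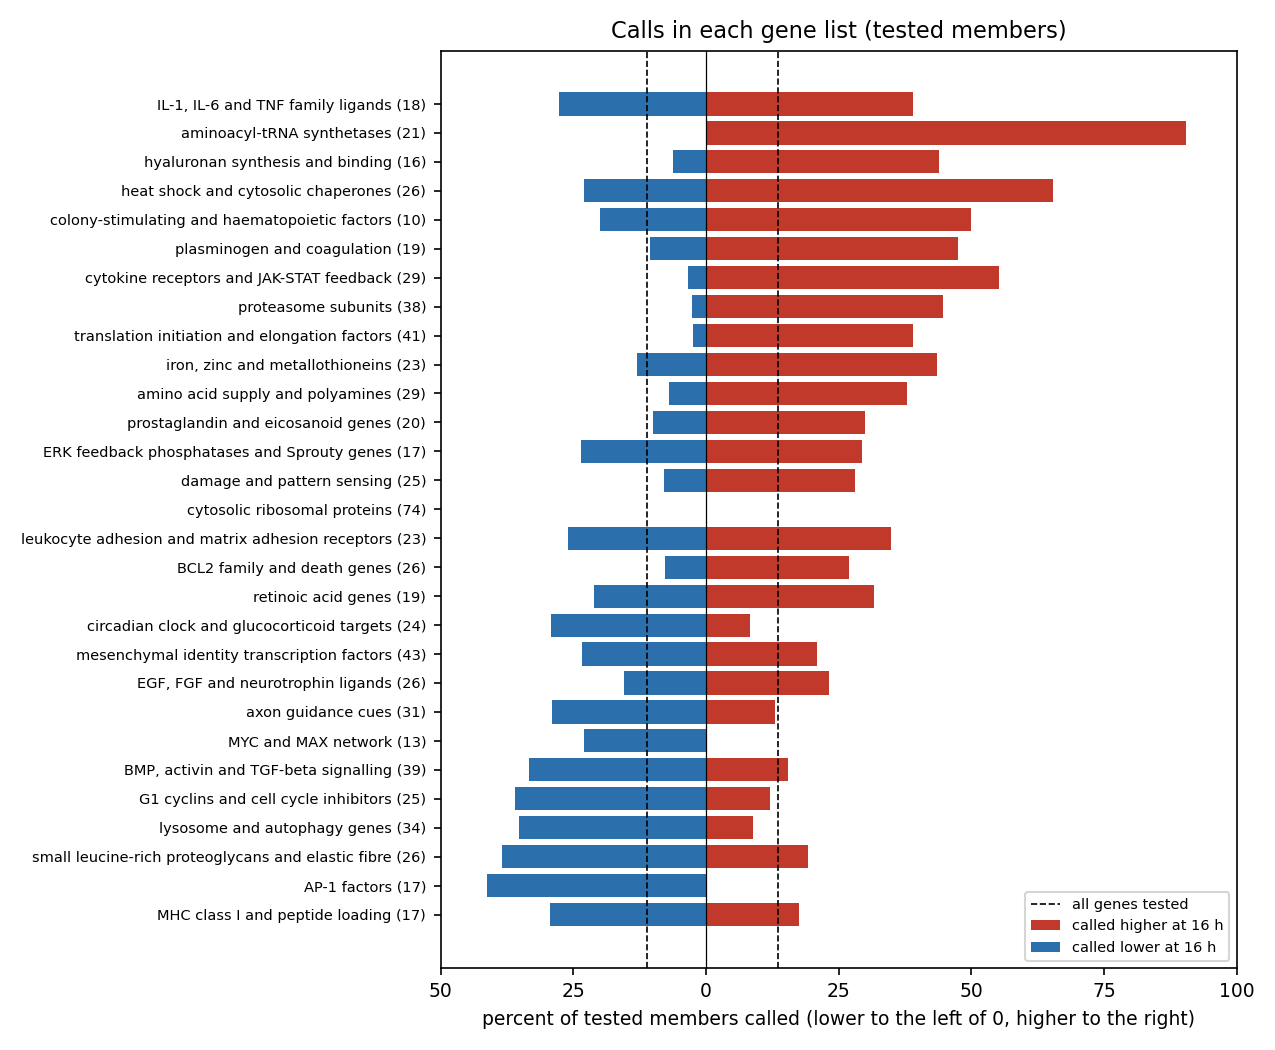
For each of the 29 lists (tested members in brackets, ordered by median log2 change), red bars to the right give the percent of tested members called higher at 16 h and blue bars to the left the percent called lower. The dashed lines mark the 13.5% called higher and 11.2% called lower among all genes tested.

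Ligands of the IL-1, IL-6 and TNF families split in direction. Of 18 tested, 7 were called higher and 5 lower, with a median change of 1.46 beside -0.0369 for all genes tested. Il33, the alarm cytokine read by ST2 (chromosome 19, 29925113 to 29960717), had 2708, 2448 and 2069 CPM at 16 h, against 149, 277 and 189.9 CPM in NW. The lowest 16 h library was above the highest NW library, the change was 3.55 ± 0.36 (SE) (edgeR adjusted p = 3.49e-05), and Il33 and its receptor gene Il1rl1 were both called higher in the same libraries. Lif, a cytokine of the IL-6 family (chromosome 11, 4257568 to 4272514), had 227, 320.4 and 250.2 CPM at 16 h, against 23.7, 6.88 and 14.5 CPM in NW, a change of 4.15 ± 0.46 (SE) at edgeR adjusted p = 7.65e-05. Il11, another member of the family that signals through the shared receptor gp130, had 32.5, 40.1 and 43.1 CPM at 16 h, against 0.534, 1.78 and 1.03 CPM in NW. The groups lay apart and the change was 5.10 ± 0.59 (SE) (edgeR adjusted p = 1.05e-04). Il6 itself was already abundant in NW and had 1079, 1164 and 1315 CPM at 16 h, against 491, 408 and 269 CPM in NW, a change of 1.61 ± 0.35 (SE) at edgeR adjusted p = 0.00555. The 5 called lower were Il1a, Il1rn, Il18, Tnfsf9 and Ctf1, and 1 to 3 of the list were called lower with any 1 library left out (1 without replicate 2 of 16 h). The keratinocyte covariate left 5 called higher and 1 lower. Osm and Il1b, also called higher, are genes of myeloid cells as well.

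Many receptors for these ligands were called higher. Of 29 genes for cytokine receptors and JAK-STAT proteins, 16 were called higher and 1 lower (Ifngr1), with a median change of 0.799, and 2 were called lower without replicate 3 of 16 h or replicate 1 of NW. Osmr, the receptor of oncostatin M (chromosome 15, 6813577 to 6874313), had 418, 474 and 267 CPM at 16 h, against 77.3, 95.3 and 64.4 CPM in NW. The change was 2.29 ± 0.28 (SE) at edgeR adjusted p = 1.49e-04, with no overlap. Il6st, which encodes gp130, had 1384, 1489 and 798 CPM at 16 h, against 435, 173 and 339.6 CPM in NW, a change of 1.95 ± 0.44 (SE) at edgeR adjusted p = 0.00656. Lifr, the receptor of LIF, had 100, 115 and 75.98 CPM at 16 h, against 30.7, 16.9 and 28.2 CPM in NW and changed by 1.94 ± 0.27 (SE). Il4ra, the IL-4 and IL-13 receptor chain, had 649.5, 553 and 414 CPM at 16 h, against 207, 125 and 127 CPM in NW, and Stat5a, a transcription factor downstream of such receptors, had 282, 389 and 212 CPM at 16 h, against 76.3, 45.8 and 36.1 CPM in NW. These were higher in each 16 h library than in any NW library. The 4 feedback inhibitor genes Socs1, Socs2, Socs3 and Cish had a median change of 0.266, in a range of -0.832 to 0.973, and stayed under the threshold of the test. Il1r1, the IL-1 receptor, had 676, 745 and 474 CPM at 16 h, against 139, 61.3 and 71.6 CPM in NW, a change of 2.80 ± 0.33 (SE) at edgeR adjusted p = 1.09e-04. Among sensors of microbes and damage, 7 of 25 were called higher and 2 lower, and 1 lower without replicate 2 of 16 h or of NW. Tlr2, a receptor of bacterial lipoproteins, was one of the lower and had 16.2, 10.001 and 11.1 CPM at 16 h, against 84.7, 31.8 and 48.2 CPM in NW, without overlap and with a change of -2.14 ± 0.35 (SE) (edgeR adjusted p = 0.00101).

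Colony-stimulating factors, which feed leukocyte production and survival, also differed by member. Csf3, the neutrophil growth factor G-CSF (chromosome 11, 98701313 to 98703629), had 494, 396 and 353 CPM at 16 h, against 2.17, 21.7 and 2.02 CPM in NW. Replicate 2 of NW stood apart from the other NW libraries, and the change of 5.58 ± 0.84 (SE) (edgeR adjusted p = 5.57e-04) became 7.62 without it. Csf2, which encodes GM-CSF, had 86.6, 108 and 161 CPM at 16 h, against 15.8, 18.3 and 10.2 CPM in NW, a change of 3.00 ± 0.43 (SE) at edgeR adjusted p = 4.06e-04. Kitl, the ligand of the receptor KIT, had 69.8, 75.5 and 64.04 CPM at 16 h, against 15.3, 13.9 and 16.7 CPM in NW, a change of 2.19 ± 0.24 (SE) at edgeR adjusted p = 7.32e-05. Il34, an alternative ligand of the macrophage receptor CSF1R that epidermis also makes, had 7.105, 5.99 and 9.83 CPM at 16 h, against 39.4, 71.03 and 66.8 CPM in NW. It was lower in each 16 h library, with a change of -2.95 ± 0.36 (SE) (edgeR adjusted p = 1.44e-04), beside the lower keratinocyte share. Of the 10 tested, 5 were called higher and 2 lower, and 3 were called higher without replicate 2 of 16 h, replicate 2 of NW or replicate 3 of NW.

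Stretches before the start of Il6 and of 3 chemokine genes are shown because each holds a full match to a binding motif of NF-kB. The letters searched were GGGA, any base and TTTCC, on both strands and within 250 bases before the 5′-most start in RefSeq (GRCm38.p6). The windows are chr5 on the plus strand: chr5:90891129-90891228 for Cxcl1, chr5:90903757-90903856 for Cxcl2, chr5:90785983-90786082 for Cxcl3 and chr5:30013014-30013113 for Il6. Capitals mark the match.
Cxcl1: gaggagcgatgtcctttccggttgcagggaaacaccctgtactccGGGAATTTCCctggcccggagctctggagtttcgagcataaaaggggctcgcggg
Cxcl2: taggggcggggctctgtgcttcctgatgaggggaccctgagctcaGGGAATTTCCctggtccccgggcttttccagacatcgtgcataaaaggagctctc
Cxcl3: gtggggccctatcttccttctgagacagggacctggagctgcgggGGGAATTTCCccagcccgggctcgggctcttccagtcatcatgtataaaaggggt
Il6: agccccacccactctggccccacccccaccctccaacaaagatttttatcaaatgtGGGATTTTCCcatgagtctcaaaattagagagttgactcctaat
The matches begin 71, 97, 73 and 44 bases before the start. Cxcl1, Cxcl2 and Cxcl3, chemokines for neutrophils, lie close together on chromosome 5. Cxcl3 had 279, 318 and 359 CPM at 16 h, against 25.5, 19.5 and 9.59 CPM in NW, and Cxcl2 had 453, 519 and 563 CPM at 16 h, against 146, 152 and 75.3 CPM in NW. Cxcl1 had 2938, 3360.2 and 4406 CPM at 16 h, against 1187, 1309 and 702 CPM in NW. In each the 16 h libraries were above the NW libraries, with changes of 4.13, 2.04 and 1.74, so that genes with the same motif differed in how far they moved and in their NW level. The motif was found in 10 of 1604 promoters of genes called higher (0.623%), in 4 of 1315 of genes called lower (0.304%) and in 46 of 11725 of all genes tested (0.392%). Of the genes higher past 2-fold, 4 of 342 held it (1.17%), Cxcl2 and Cxcl3 among them. The 10 promoters of genes called higher include those of Cxcl1, Cxcl2, Cxcl3 and Il6 shown here. No difference between the shares of this motif was tested. A match of letters is a description and not a measured site.

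**Figure D4:**
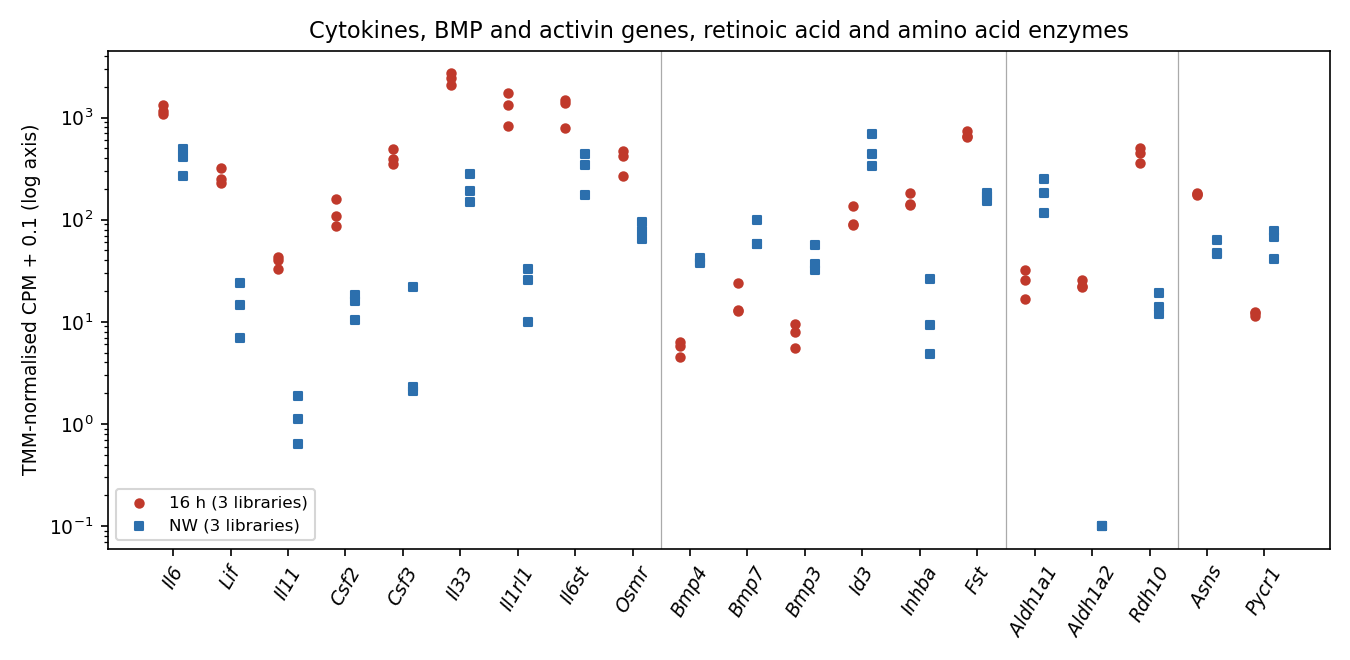
TMM-normalised CPM plus 0.1 on a log axis in each library for cytokine and receptor genes, BMP and activin genes, retinoic acid enzymes and the amino acid enzymes Asns and Pycr1, the 4 blocks being parted by grey lines. Red circles (16 h) stand left of blue squares (NW); the 3 NW marks of Aldh1a2 sit at 0.1 because it had no count in NW.

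Several BMP ligand genes were called lower, and the activin genes Inhba and Fst were called higher. Of 39 tested genes of the BMP, activin and TGF-beta pathways, 13 were called lower (33.3%) and 6 higher (15.4%), with a median change of -0.349. Among all genes tested 11.2% were called lower and 13.5% higher. Without replicate 1 or without replicate 2 of 16 h, 8 of the 39 were called lower. The 6 ligand genes Bmp2 to Bmp7 had changes between -3.17 and -1.24, and 4 of them were called, a grouping made after the values were seen. Bmp4, a ligand of skin and hair follicle patterning (chromosome 14, 46383525 to 46390669), had 4.47, 5.63 and 6.24 CPM at 16 h, against 37.9, 38.6 and 42.1 CPM in NW. All 16 h libraries were far below NW, with a change of -2.86 ± 0.49 (SE) at edgeR adjusted p = 0.00140. Bmp3 had 9.51, 5.45 and 7.85 CPM at 16 h, against 32.01, 36.5 and 56.99 CPM in NW, a change of -2.46 ± 0.39 (SE). Bmp7 had 23.7, 12.6 and 12.9 CPM at 16 h, against 98.7, 57.8 and 57.6 CPM in NW, a change of -2.12 ± 0.40 (SE). Id3, a BMP target that blocks helix-loop-helix factors, had 91.4, 88.4 and 135 CPM at 16 h, against 442, 689 and 333 CPM in NW, and it changed by -2.22 ± 0.39 (SE) (edgeR adjusted p = 0.00163). Tgfb3, a TGF-beta ligand, had 11.4, 9.01 and 9.63 CPM at 16 h, against 68.4, 39.4 and 31.9 CPM in NW and changed by -2.22 ± 0.32 (SE), edgeR adjusted p = 4.18e-04. In the other direction, Inhba, which encodes the activin A subunit (chromosome 13, 16011851 to 16031609), had 141, 184 and 142 CPM at 16 h, against 26.3, 4.77 and 9.29 CPM in NW. The groups did not overlap, and the change of 3.53 ± 0.62 (SE) (edgeR adjusted p = 0.00151) became 4.51 without replicate 1 of NW. Fst, which encodes the activin binder follistatin, had 648, 742 and 658 CPM at 16 h, against 169, 182 and 153 CPM in NW, a change of 2.02 ± 0.34 (SE) at edgeR adjusted p = 0.00113. Bmpr1b, a BMP receptor that was close to absent in NW, had 18.9, 21.1 and 10.2 CPM at 16 h, against 0.4196, 0.296 and 0.133 CPM in NW and changed by 5.88 ± 0.48 (SE). Chrd, the BMP antagonist chordin, had 4.303, 3.28 and 1.48 CPM at 16 h, against 33.2, 20.96 and 15.5 CPM in NW, a change of -2.94 ± 0.41 (SE).

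Among other growth factors, 6 of 26 were called higher (23.1%) and 4 lower (15.4%), beside 13.5% and 11.2% of all genes tested. Gdnf, a neurotrophic factor, had 31.7, 45.5 and 38.4 CPM at 16 h, against 5.49, 4.15 and 2.89 CPM in NW, a change of 3.21 ± 0.30 (SE) at edgeR adjusted p = 2.75e-05. Fgf7, the keratinocyte growth factor made by fibroblasts, had 98.4, 124 and 108 CPM at 16 h, against 48.6, 19.8 and 23.3 CPM in NW, with no overlap and a change of 1.85 ± 0.31 (SE) (edgeR adjusted p = 0.00106). Hgf, Fgf18 and Ereg were also called higher. The PDGF ligand genes Pdgfa, Pdgfb and Pdgfc were called lower, with changes between -3.54 and -1.44, while the receptor gene Pdgfra was called higher. Pdgfd, which is outside the list and was added after the values were seen, had 11.7, 7.802 and 7.92 CPM at 16 h, against 45.02, 22.8 and 30.9 CPM in NW, a change of -1.85 ± 0.35 (SE) at edgeR adjusted p = 0.00228. Guidance cues for axons and vessels had 4 of 31 called higher (12.9%) and 9 lower (29%). Sema3b, a secreted semaphorin, had 50.7, 25.8 and 14.9 CPM at 16 h, against 500, 225 and 313 CPM in NW, and Sema6d, a membrane semaphorin, had 47.4, 36.03 and 19.6 CPM at 16 h, against 3.43, 5.82 and 3.18 CPM in NW. They moved in opposite directions, by -3.51 and 3.05. Without replicate 2 of 16 h, or replicate 1 or 3 of NW, 5 guidance genes were called lower, and 2 were called higher without replicate 2 of 16 h or replicate 3 of NW, by limma-voom and with the keratinocyte covariate.

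Enzymes of retinoic acid synthesis moved in opposite directions. Rdh10, which oxidises retinol in the opening step (chromosome 1, 16105882 to 16132550), had 361, 498 and 447 CPM at 16 h, against 18.9, 11.9 and 13.7 CPM in NW. The change was 4.87 ± 0.34 (SE) at edgeR adjusted p = 1.04e-05. Aldh1a2, which completes the synthesis, had 25.6, 21.7 and 22.4 CPM at 16 h, against 0, 0 and 0 CPM in NW. Aldh1a1, an enzyme of the same step (11.2% of its exon length is shared with another gene), had 32.4, 25.5 and 16.6 CPM at 16 h, against 250.1, 117 and 181 CPM in NW. It was lower in each 16 h library, with a change of -2.88 ± 0.38 (SE) (edgeR adjusted p = 2.49e-04). Over the list of 19, 6 were called higher and 4 lower and the median was 0.00184.

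Some genes of prostaglandin synthesis, sensing and transport were called higher, and the inactivating gene Hpgd was called lower. Ptgs2, the inducible cyclooxygenase (chromosome 1, 150100031 to 150108234), had 1929, 2299 and 1120 CPM at 16 h, against 536, 261 and 478 CPM in NW. The groups did not overlap, with a change of 2.07 ± 0.33 (SE) at edgeR adjusted p = 9.06e-04. Ptgis, prostacyclin synthase, had 184, 296 and 409.8 CPM at 16 h, against 14.3, 13.3 and 11.5 CPM in NW, a change of 4.50 ± 0.39 (SE) at edgeR adjusted p = 2.52e-05. Ptgir, the prostacyclin receptor, had 35.8, 48.02 and 17.6 CPM at 16 h, against 8.66, 3.68 and 4.31 CPM in NW and changed by 2.61 ± 0.42 (SE). Slco2a1, a prostaglandin transporter, had 614, 710.2 and 463 CPM at 16 h, against 157, 106 and 132 CPM in NW, and changed by 2.17 ± 0.24 (SE). Hpgd, which inactivates prostaglandins, had 23.7, 21.2 and 17.7 CPM at 16 h, against 123, 42.3 and 82.4 CPM in NW, a change of -1.98 ± 0.41 (SE) (edgeR adjusted p = 0.00386). Of 20 genes tested, 6 were called higher (30%) and 2 lower (10%), beside 13.5% and 11.2% of all genes tested.

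Iron and zinc handling genes held some of the steepest rises. In contrast, the iron reductase gene Cybrd1, which is outside the list, had no count at 16 h, as given above. Steap1, a metalloreductase gene (chromosome 5, 5736322 to 5749317), had 57.6, 70.8 and 126 CPM at 16 h, against 0.4196, 0.526 and 1.16 CPM in NW. The NW libraries were near the limit of detection, and the change of 6.90 ± 0.52 (SE) (edgeR adjusted p = 1.04e-05) became 7.49 without replicate 3 of NW. Steap2, of the same family, had 118, 120.5 and 93.5 CPM at 16 h, against 11.7, 6.68 and 5.01 CPM in NW and changed by 3.83 ± 0.36 (SE). Slc39a14, an importer of zinc and iron (chromosome 14, 70303467 to 70351424), had 1449.5, 1493 and 851 CPM at 16 h, against 92.6, 61.7 and 62.1 CPM in NW, a change of 4.13 ± 0.38 (SE) at edgeR adjusted p = 2.60e-05. Tfrc, the transferrin receptor, had 99.9, 76.9 and 52.2 CPM at 16 h, against 18.7, 12.6 and 17.5 CPM in NW, a change of 2.23 ± 0.29 (SE). Lcn2, which binds the iron carriers of bacteria, had 117, 86.998 and 50.9 CPM at 16 h, against 3.93, 1.09 and 1.33 CPM in NW, and its change of 5.34 ± 0.76 (SE) became 6.18 without replicate 1 of NW. Of 23 genes, 10 were called higher and 3 lower, the lower being Steap3, Hfe and Hamp. The lower count was 1 without replicate 2 of 16 h, replicate 1 of NW or replicate 2 of NW, and 1 with the keratinocyte covariate.

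Nearly all synthetase genes and some translation factor genes were called higher, and no ribosomal protein gene was. Of 21 aminoacyl-tRNA synthetase genes, which charge tRNAs, 19 were called higher, with a median change of 1.36, and 18 or 19 were called with any 1 library left out. Wars, for tryptophan, had 133, 159 and 152 CPM at 16 h, against 48.3, 39.6 and 49.4 CPM in NW. Vars, for valine, had 328, 345 and 230.3 CPM at 16 h, against 77.2, 46.5 and 74.7 CPM in NW, and Rars, for arginine, had 125, 126 and 156 CPM at 16 h, against 39.3, 47.7 and 33.004 CPM in NW. Farsb, for phenylalanine (10.4% of its exon length is shared with another gene), had 156, 172 and 168 CPM at 16 h, against 49.02, 62.1 and 48.5 CPM in NW. These 4 genes had changes of 1.69, 2.19, 1.76 and 1.63, and in each the groups lay apart. The 2 not called were Qars and the mitochondrial enzyme gene Fars2. Of 41 initiation and elongation factor genes, 16 were called higher and 1 lower, with a median of 0.709, and 11 to 18 were called higher and 0 to 2 lower with any 1 library left out. Eif3b, a scaffold subunit of initiation factor 3 (chromosome 5, 140419305 to 140443358), had 956, 1029 and 687 CPM at 16 h, against 233, 251 and 292 CPM in NW, a change of 1.78 ± 0.21 (SE) at edgeR adjusted p = 1.07e-04. Eif2b3, a subunit of the factor that recharges eIF2, had 61.7, 71.2 and 81.7 CPM at 16 h, against 16.9, 16.5 and 10.2 CPM in NW, and its change was 2.30 ± 0.28 (SE) at edgeR adjusted p = 1.61e-04.

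Of 74 cytosolic ribosomal protein genes, none was called by edgeR, and 1 was higher and none lower at an unadjusted p under 0.05. DESeq2 and limma-voom also called none, and edgeR called 4 higher without replicate 2 of NW. The median was 0.133, in a range of -0.706 to 1.48. With 1 library left out the median ran from -0.0607 to 0.643. Of the 74 genes, 0 met the limit used above for a steady gene. Rpl4, the most abundant of them in these libraries, had 741, 834 and 996 CPM at 16 h, against 564, 1002 and 664 CPM in NW, with overlapping groups and a change of 0.21 ± 0.30 (SE) (edgeR adjusted p = 0.654). Ribosomal protein genes have many processed copies in the genome, and fragments that align to several places were not counted, so their levels are uncertain.

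Windows before the start of 5 amino acid genes are shown because they hold the motif TGATGNAA, which ATF4, the transcription factor of the amino acid response, can bind. It was found on either strand in 3 of the 14 synthetase promoters at hand (21.4%), those of Aars, Gars and Tars, against 2.17% of all genes tested, 2.31% of genes called higher and 2.81% of genes called lower. Asns and Pycr1 are enzymes of asparagine and proline synthesis. The windows are chr6:7693210-7693309 on the minus strand for Asns, chr8:111033685-111033784 on the plus strand for Aars, chr6:55037901-55038000 on the plus strand for Gars, chr15:11399659-11399758 on the minus strand for Tars and chr11:120643797-120643896 on the minus strand for Pycr1, in GRCm38.p6. Capitals mark the match, which lies on the other strand in Aars, Gars and Tars.
Asns: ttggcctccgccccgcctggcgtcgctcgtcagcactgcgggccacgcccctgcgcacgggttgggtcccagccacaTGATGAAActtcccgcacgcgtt
Aars: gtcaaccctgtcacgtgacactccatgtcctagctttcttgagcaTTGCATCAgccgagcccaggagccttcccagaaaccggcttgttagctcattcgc
Gars: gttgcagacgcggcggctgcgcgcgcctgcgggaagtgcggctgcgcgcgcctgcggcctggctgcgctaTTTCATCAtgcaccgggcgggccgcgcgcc
Tars: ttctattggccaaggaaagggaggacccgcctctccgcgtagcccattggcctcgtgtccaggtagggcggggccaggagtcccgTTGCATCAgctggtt
Pycr1: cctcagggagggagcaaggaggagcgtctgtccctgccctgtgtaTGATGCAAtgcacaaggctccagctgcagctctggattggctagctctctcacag
Genes with this motif did not share a direction. Asns had 177, 184 and 175 CPM at 16 h, against 47.6, 45.7 and 63.6 CPM in NW, a change of 1.77 ± 0.22 (SE) at edgeR adjusted p = 1.77e-04. Pycr1 had 12.1, 11.2 and 12.4 CPM at 16 h, against 76.6, 40.8 and 66.8 CPM in NW, and was lower in each 16 h library, with a change of -2.36 ± 0.26 (SE) (edgeR adjusted p = 7.50e-05). Aars, Gars and Tars changed by 1.38, 1.36 and 1.07. Other motifs were searched on both strands. The letters ACGTG of the hypoxia response were found in 22.2% of promoters of genes called higher, 18.1% of those past 2-fold, 18.6% of genes called lower and 21.3% of all genes tested, and in 5 of the 14 synthetase promoters (35.7%). The E-box CACGTG, which holds those letters too, was found in 9.04, 6.73, 6.92 and 8.32% of the same sets and in 3 synthetase promoters (21.4%). The AP-1 motif TGANTCA was found in 5.24% of genes called higher, 8.19% of those past 2-fold, 6.01% of genes called lower and 4.93% of all genes tested, and in 1 synthetase promoter (7.14%). The STAT motif TTCNNNGAA was found in 6.36, 6.73, 5.4 and 5.9% of the same sets and in 2 synthetase promoters (14.3%). No difference between these shares was tested.

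Supply of amino acids and polyamines followed with 11 of 29 genes called higher and 2 lower, and 1 lower without replicate 2 of 16 h or replicate 1 of NW. Slc7a5, the importer of large neutral amino acids (chromosome 8, 121881146 to 121907686), had 212, 209 and 136 CPM at 16 h, against 36.7, 47.9 and 28.1 CPM in NW, a change of 2.31 ± 0.26 (SE) at edgeR adjusted p = 9.08e-05. Glul, which makes glutamine, had 263, 384 and 516 CPM at 16 h, against 105, 119 and 59.3 CPM in NW and changed by 2.04 ± 0.36 (SE). Odc1, the first enzyme of polyamine synthesis, had 455, 529 and 544 CPM at 16 h, against 189, 222 and 155 CPM in NW and changed by 1.43 ± 0.26 (SE). All 3 had groups that did not overlap.

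Chaperones parted by kind. Of 26 tested, 17 were called higher and 6 lower. With any 1 library left out, 13 to 15 were called higher and 4 to 5 lower. With the keratinocyte covariate 12 were called higher and 4 lower. The 8 subunits of the CCT chaperonin, the ring that folds actin and tubulin, were all called higher, between 0.871 and 1.79, a grouping made after the values were seen. Cct5 had 624, 656 and 717 CPM at 16 h, against 195, 245 and 202 CPM in NW, a change of 1.64 ± 0.22 (SE) at edgeR adjusted p = 2.91e-04. The mitochondrial chaperone Hspd1 had 368, 502 and 422 CPM at 16 h, against 84.6, 83.8 and 104 CPM in NW. It was higher in each 16 h library, by 2.25 ± 0.22 (SE) (edgeR adjusted p = 3.14e-05). Hspa4, a cofactor of HSP70, had 347, 349.9 and 289 CPM at 16 h, against 85.2, 108 and 102 CPM in NW and changed by 1.74 ± 0.18 (SE). The 6 called lower were genes of inducible HSP70, small heat shock proteins and DNAJB cochaperones, also grouped after the values were seen. Their changes lay between -3.35 and -0.879. Hspb1, a small heat shock protein (chromosome 5, 135887919 to 135889563), had 64.4, 40.9 and 50.2 CPM at 16 h, against 374, 783 and 427 CPM in NW. Its change was -3.35 ± 0.37 (SE) at edgeR adjusted p = 7.88e-05, without overlap. Dnajb1, a cochaperone of HSP70, had 151, 126 and 206 CPM at 16 h, against 388, 662 and 489 CPM in NW, a change of -1.67 ± 0.27 (SE) (edgeR adjusted p = 9.38e-04). Hspa1a had 88.96, 67.9 and 69.2 CPM at 16 h, against 304, 196 and 163 CPM in NW and changed by -1.55 ± 0.36 (SE), though fragments shared with its near-identical copy Hspa1b were not counted.

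Most genes of the regulatory particle of the proteasome were called higher. Of 38 subunit genes, 17 were called higher and 1 lower (Psmb9, of the immunoproteasome), and 11 were called higher without replicate 2 of 16 h. Psmb9 changed by -2.12 and was not called without replicate 1 or without replicate 2 of 16 h (edgeR adjusted p = 0.0525 and 0.054) nor with the keratinocyte covariate, and it stood at -3.07 without replicate 3 of 16 h. Split after the values were seen, 15 of 17 Psmc and Psmd genes were called higher, with a median of 0.928, and 1 of 17 Psma and Psmb genes was, with a median of 0.503. The difference between these groups was not tested. Psmd1 had 434, 471 and 356 CPM at 16 h, against 137, 122 and 159 CPM in NW, a change of 1.59 ± 0.20 (SE) at edgeR adjusted p = 1.44e-04. Psmd3 had 329, 376 and 343 CPM at 16 h, against 134, 129 and 122 CPM in NW, and changed by 1.45 ± 0.17 (SE). Lysosome and autophagy genes lay on the other side, with 12 of 34 called lower and 3 higher, and 7 called lower without replicate 2 of 16 h. Hexa, a lysosomal hexosaminidase subunit, had 92.5, 54.98 and 70.2 CPM at 16 h, against 386, 291 and 232 CPM in NW, a change of -2.06 ± 0.29 (SE) (edgeR adjusted p = 3.52e-04). Ctsf, a lysosomal cysteine protease, had 35.1, 21.4 and 32.8 CPM at 16 h, against 147, 116 and 94.3 CPM in NW and changed by -2.00 ± 0.30 (SE). Lgmn, the lysosomal protease legumain, was an exception and had 221, 212 and 232 CPM at 16 h, against 56.9, 47.6 and 38.2 CPM in NW, higher by 2.22 ± 0.21 (SE) (edgeR adjusted p = 2.60e-05). Of 17 genes of class I antigen presentation, 5 were called lower and 3 higher, the 3 being the endoplasmic reticulum chaperones Calr, Canx and Pdia3. H2-T23, a class I heavy chain gene, had 56.3, 50.4 and 90.6 CPM at 16 h, against 181, 231 and 157 CPM in NW and changed by -1.53 ± 0.31 (SE). With 1 library left out, 1 to 4 genes of the list were called lower (1 without replicate 2 of 16 h). With the keratinocyte covariate 2 of this list were called higher and 1 lower.

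**Figure D5:**
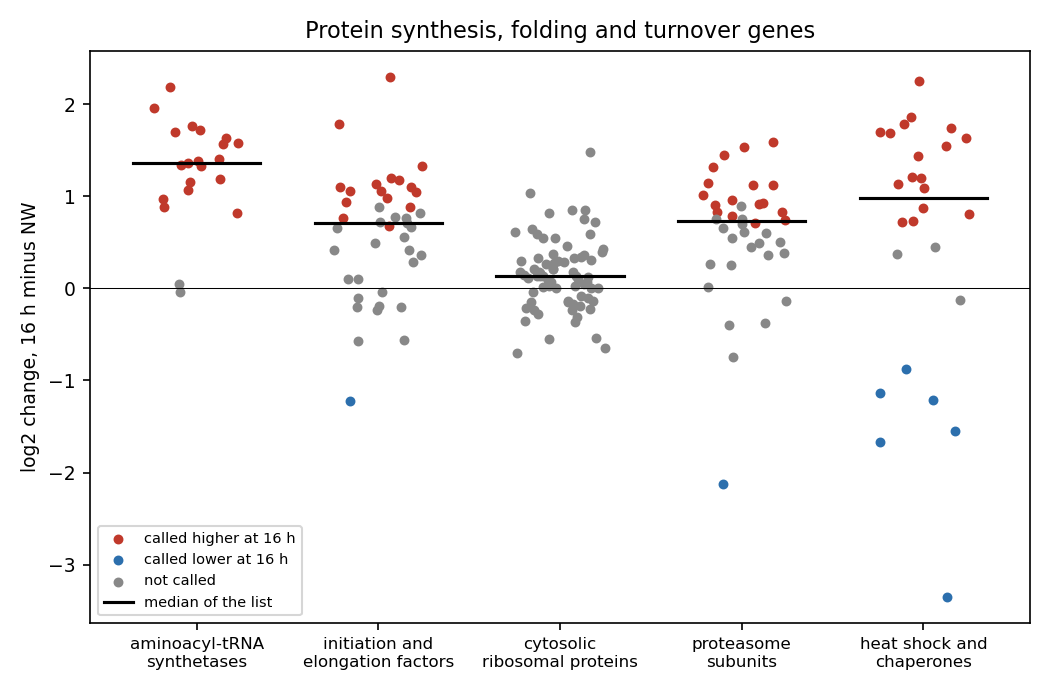
Log2 change of 16 h minus NW for each tested member of 5 lists, with red, blue and grey points for genes called higher, called lower and not called, and a black line at the median of the list. The synthetases sit above 0 with 19 of 21 called, the 74 ribosomal proteins spread around 0 with none called, and the chaperones fall into a higher and a lower group.

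In the matrix, several genes of small leucine-rich proteoglycans, which space collagen fibrils, were called lower. Of 26 genes of this family and of elastic fibres, 10 were called lower and 5 higher, with a median of -0.569, and 10 or 11 were called lower with any 1 library left out. Aspn, asporin (chromosome 13, 49544443 to 49567562), had 41.6, 25.8 and 30.1 CPM at 16 h, against 468, 237 and 288 CPM in NW. No 16 h library reached the NW levels, and the change was -3.35 ± 0.36 (SE) at edgeR adjusted p = 6.26e-05. Ogn, osteoglycin, had 55.6, 40.7 and 70.7 CPM at 16 h, against 724, 337 and 389 CPM in NW. Mfap2, a microfibril protein, had 66.2, 44.3 and 60.8 CPM at 16 h, against 564, 512 and 359 CPM in NW and changed by -3.07 ± 0.39 (SE). Fbln5, a fibulin needed for elastic fibre assembly, had 35.99, 35.4 and 32.002 CPM at 16 h, against 138, 102 and 109 CPM in NW, a change of -1.76 ± 0.20 (SE) at edgeR adjusted p = 7.96e-05. Efemp2, another fibulin of elastic fibres, was higher, and had 341, 404 and 379 CPM at 16 h, against 98.5, 88.9 and 68.7 CPM in NW, a change of 2.13 ± 0.27 (SE) at edgeR adjusted p = 1.69e-04.

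Hyaluronan-binding genes were called higher in 7 of 16, beside 1 lower, and none was lower without replicate 2 or 3 of 16 h or replicate 3 of NW. Vcan, versican (chromosome 13, 89655310 to 89742512), had 371, 428 and 303 CPM at 16 h, against 61.9, 30.9 and 74.04 CPM in NW. It was higher in each 16 h library, by 2.72 ± 0.35 (SE) (edgeR adjusted p = 2.18e-04). Tnfaip6, which transfers proteins onto hyaluronan, was among the 8 genes that gained the most CPM and had 4963, 5828 and 5316 CPM at 16 h, against 2922, 1789 and 1441 CPM in NW, a change of 1.39 ± 0.29 (SE). Adhesion receptors split: Itga5, the fibronectin receptor chain (chromosome 15, 103344286 to 103366791), had 867, 830 and 536 CPM at 16 h, against 137, 73.2 and 66.9 CPM in NW and changed by 3.01 ± 0.32 (SE) at edgeR adjusted p = 5.67e-05, while the collagen receptor chain Itga11 had 13.01, 10.1 and 14.5 CPM at 16 h, against 64.9, 30.2 and 61.7 CPM in NW and changed by -2.06 ± 0.43 (SE). Vcam1, which binds leukocytes, had 203, 362 and 234 CPM at 16 h, against 76.3, 38.98 and 64.1 CPM in NW, a change of 2.16 ± 0.28 (SE) at edgeR adjusted p = 2.08e-04.

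Genes of clotting and fibrin removal were called higher on both sides of the balance, 9 of 19 with 2 lower. The lower count was 0 without replicate 2 or 3 of 16 h or replicate 2 of NW, and 1 without each of the other libraries. With the keratinocyte covariate 7 were called higher and 0 lower. Thbd, the anticoagulant receptor thrombomodulin (chromosome 2, 148404471 to 148408188), had 621, 957 and 643 CPM at 16 h, against 116, 76.9 and 96.6 CPM in NW, a change of 2.94 ± 0.31 (SE) at edgeR adjusted p = 5.26e-05. Plau, the plasminogen activator urokinase, had 37.1, 36.1 and 34.5 CPM at 16 h, against 12.7, 1.88 and 7.76 CPM in NW. Its change of 2.27 ± 0.50 (SE) became 2.94 without replicate 1 of NW. F3, tissue factor, and its inhibitor Tfpi were also called higher.

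Transcription factors of mesenchymal identity were called in both directions, 9 of 43 higher and 10 lower. Runx1 (chromosome 16, 92601466 to 92826074), a factor of blood and mesenchymal cells, had 139.7, 214 and 141 CPM at 16 h, against 17.8, 11.8 and 21.8 CPM in NW. The change was 3.26 ± 0.33 (SE) at edgeR adjusted p = 3.49e-05. Runx2, the factor of bone formation, had 11.8, 18.9 and 23.5 CPM at 16 h, against 0.649, 1.28 and 1.09 CPM in NW, a change of 4.15 ± 0.37 (SE) at edgeR adjusted p = 2.60e-05. Osr2, an odd-skipped factor of connective tissue, had 60.6, 66.7 and 78.2 CPM at 16 h, against 234, 163 and 164 CPM in NW, a change of -1.45 ± 0.21 (SE). Without replicate 2 of 16 h, 5 of the 43 were called higher. Of 17 AP-1 factors, the early-response factors of stress and growth signals, 7 were called lower, and 4 without replicate 1 or without replicate 2 of 16 h. None was higher by edgeR, DESeq2 or limma-voom, nor at an unadjusted p under 0.05 by edgeR. Fos (chromosome 12, 85473890 to 85477274) had 1167, 1262 and 2034 CPM at 16 h, against 3181, 3523 and 4035 CPM in NW, a change of -1.27 ± 0.30 (SE) at edgeR adjusted p = 0.00853. Atf3 had 539, 448 and 688 CPM at 16 h, against 1654, 2339 and 2229 CPM in NW and changed by -1.89 ± 0.42 (SE). In both, NW cells held the higher level, and cells of both groups had passed through mincing and digestion before RNA was taken. Whether this handling bears on the levels was not tested.

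Of 24 glucocorticoid targets and clock genes, 2 were called higher (8.33%) and 7 lower (29.2%). Among all genes tested these shares were 13.5% and 11.2%. The lower count was 4 without replicate 2 or 3 of 16 h or replicate 2 or 3 of NW, and the higher count was 4 without replicate 1 of NW. With the keratinocyte covariate 2 were called higher and 3 lower. Tsc22d3, a glucocorticoid target (chromosome X, 140539529 to 140600522), had 20.6, 11.99 and 16.5 CPM at 16 h, against 131, 153 and 148 CPM in NW, a change of -3.14 ± 0.41 (SE) (edgeR adjusted p = 2.36e-04). Sgk1, a kinase that is also a glucocorticoid target, had 523, 626 and 621 CPM at 16 h, against 134, 158 and 129 CPM in NW and was higher by 2.07 ± 0.20 (SE) (edgeR adjusted p = 3.15e-05). Per2, a clock repressor, had 15.6, 22.1 and 9.73 CPM at 16 h, against 1.26, 0.263 and 1.59 CPM in NW and was higher by 3.93 ± 0.59 (SE), whereas Per1 was called lower. The labels give no time of day for the harvest.

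Among feedback genes of ERK signalling, 5 of 17 were called higher and 4 lower, and the lower count was 0 without replicate 2 of 16 h or replicate 2 of NW and 2 without each of replicates 1 and 3 of 16 h and replicate 3 of NW. The keratinocyte covariate left 4 called higher and 0 lower. Spred1, an inhibitor of the pathway, had 274, 324 and 216 CPM at 16 h, against 86.1, 38.8 and 60.9 CPM in NW, a change of 2.13 ± 0.30 (SE) at edgeR adjusted p = 3.63e-04. In the MYC and MAX network 3 of 13 were called lower. Mxi1, a MYC antagonist, had 25.8, 22.8 and 13.96 CPM at 16 h, against 49.8, 53.5 and 67.3 CPM in NW, a change of -1.45 ± 0.27 (SE) (edgeR adjusted p = 0.00245), and Myc itself was not called.

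Cell death and cell cycle genes changed in part. Mlkl, the effector of necroptosis (chromosome 8, 111311798 to 111338205), had 66.9, 81.5 and 91.6 CPM at 16 h, against 14.6, 9.67 and 6.999 CPM in NW. It was higher in each 16 h library, by 2.94 ± 0.28 (SE) (edgeR adjusted p = 2.73e-05). Ripk3, the kinase that activates MLKL, had 100.1, 86.03 and 93.9 CPM at 16 h, against 38.7, 27.4 and 24.1 CPM in NW, a change of 1.63 ± 0.23 (SE) at edgeR adjusted p = 3.97e-04. Cflar, an inhibitor of caspase 8, had 120.5, 146 and 101 CPM at 16 h, against 57.4, 36.2 and 35.3 CPM in NW, and Bcl2, a survival gene, had 3.84, 3.83 and 4.73 CPM at 16 h, against 17.8, 14.2 and 12.4 CPM in NW. They changed by 1.51 and -1.84. Over the list, 7 of 26 were called higher and 2 lower. Of 25 genes of G1 cyclins and inhibitors, 9 were called lower and 3 higher, and 3 were called lower without replicate 1 or without replicate 2 of 16 h and 4 without replicate 2 of NW. The keratinocyte covariate left 4 called lower and 2 higher. Mdm2, the ubiquitin ligase of p53, had 233, 238 and 191 CPM at 16 h, against 110.4, 85.6 and 98.3 CPM in NW, a change of 1.17 ± 0.18 (SE) at edgeR adjusted p = 7.02e-04. Gadd45a, a p53 target (19.4% of its exon length is shared with another gene), had 22.3, 12.02 and 15.7 CPM at 16 h, against 75.3, 153 and 65.6 CPM in NW and changed by -2.55 ± 0.35 (SE) (edgeR adjusted p = 3.48e-04).

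The 16 h state was set beside the later wounds for the genes above. Between 1.5 d and 16 h 426 genes were called (2.86%), 356 higher (2.39%) and 70 lower (0.47%) at 1.5 d. Between 3 d and 16 h there were 1420 (9.53%), 873 higher (5.86%) and 547 lower (3.67%) at 3 d. Angptl1 had means of 101 CPM in NW, 4.24 CPM at 16 h, 38.4 CPM at 1.5 d and 80.8 CPM at 3 d, and its level at 3 d differed from 16 h at edgeR adjusted p = 6.68e-05. Pycr1 had 61.4 CPM in NW, 11.9 CPM at 16 h, 78.5 CPM at 1.5 d and 95.5 CPM at 3 d, with edgeR adjusted p = 4.22e-04 for 1.5 d against 16 h. Aspn had 331 CPM in NW, 32.5 CPM at 16 h, 167 CPM at 1.5 d and 411 CPM at 3 d, edgeR adjusted p = 1.04e-04 for 3 d against 16 h. Tgfb3 had 46.6 CPM in NW, 10.03 CPM at 16 h, 23.5 CPM at 1.5 d and 104 CPM at 3 d, edgeR adjusted p = 9.87e-05 for 3 d against 16 h. These 4 genes had their lowest mean of the 4 times at 16 h. Aldh1a2 had 0 CPM in NW, 23.2 CPM at 16 h, 14.7 CPM at 1.5 d and 2.37 CPM at 3 d, edgeR adjusted p = 0.00454 for 3 d against 16 h, and Slco2a1 had 132 CPM in NW, 596 CPM at 16 h, 301 CPM at 1.5 d and 143 CPM at 3 d, edgeR adjusted p = 3.10e-04. Both had their highest mean at 16 h. Smpd3 had 181 CPM in NW, 3.25 CPM at 16 h, 14.1 CPM at 1.5 d and 7.93 CPM at 3 d, and Bmp4 had 39.5 CPM in NW, 5.45 CPM at 16 h, 3.02 CPM at 1.5 d and 3.67 CPM at 3 d. For Bmp4 no later time was called against 16 h (edgeR adjusted p = 0.381 for 1.5 d and 0.511 for 3 d). These comparisons share the 16 h libraries with the comparison against NW.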

How the data were processed

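The deposited table gives raw counts, in whole numbers, for each gene symbol. Per the file headers, the authors made them with featureCounts 2.0.0 from read pairs and refGene exons (mm10). Fragments that aligned to several places or genes were not counted, and the kit does not keep strand. The submitters' processing notes also name STAR, SAMtools, Subread and Partek. Genes were filtered with filterByExpr, scaled by TMM and fitted by group over all 12 libraries with edgeR 4.0.16 in R 4.3.3 (robust quasi-likelihood), p being adjusted by Benjamini-Hochberg. SEs are approximate, being the absolute log2 change divided by the square root of F. DESeq2 1.42.0 and limma 3.58.1 served as alternatives and, for limma-voom, the intervals of steady genes.

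Replicate libraries correlated at 0.952 to 0.977 at 16 h and 0.948 to 0.954 in NW (log2 CPM), and the spread was at least 87.24 times that of counting (chi-square per degree of freedom). A count of 3 stood for about 0.1 CPM, and bounds cover counting error only.

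Members and lists were chosen with earlier results of these data known. Named genes were the 12 largest rises and falls, the 8 largest gains and losses of CPM, up to 4 called members of each list, the 6 most abundant genes found in 1 group only and steady genes, and gate markers. Others were chosen after their values were seen: Cxcl2, Cxcl3, Il6, Aars, Gars, Tars, Vars, Cct5, Hspa1a, Dnajb1, Bmp4, Bmp7, Id3, Inhba, Fst, Il6st, Lcn2, Ogn, Plau, Hpgd, Odc1, Pdgfd, Psmb9, Krt6a and further list members named without values. Promoters came from RefSeq and matched 11725 of 14901 genes. Exon sequence was shared with another gene in 16 of 198 named genes. The fit was tested on simulated data.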

Additional observations from a re-analysis of the deposited data

How the results depend on the processing

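The 3687 calls became 3689 with DESeq2 size factors, 3661 with total-count scaling, 3402 with no filter on low counts, 3703 with a filter of 1 CPM, 4680 with the DESeq2 test, 4003 with limma-voom and 3452 with the 6 libraries fitted alone. In each setting every call shared with the 3687 had the same direction, though fits of the same counts would seldom differ in direction. With the keratinocyte level as a covariate there were 2147 calls (1257 higher, 890 lower), 455 past 2-fold (272 higher, 183 lower) and 18 steady genes. With 1 library left out there were 2249 to 3178 calls, 1308 to 1855 higher and 941 to 1323 lower, with 439 to 679 past 2-fold (263 to 424 higher, 176 to 273 lower) and 11 to 42 steady. The lowest counts were without replicate 2 of 16 h. Whether replicate numbers pair the samples is not known. Deviations of same-numbered libraries from their group means correlated at 0.0058, -0.163 and -0.121, and those of unlike numbers at -0.125 to 0.22. Deviations within groups of 3 are tied to each other, so these values cannot decide on pairing. With a replicate block 3030 genes were called (1694 higher, 1336 lower) and 46 were steady. Pecam1, the gene of CD31, was not called and had -0.56, but 0.29 with limma-voom and -1.12 to 1.02 with 1 library left out (1.02 without replicate 3 of NW). Among list counts 98 of 928 moved by over 1.5 times. Of genes under 1 CPM 8.67% were called, and no setting varied the depth.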
